A study of Mus musculus with 12 samples.

Results

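Cadherins, catenins and related cell adhesion molecules were examined as a set of 10 genes in mouse embryonic fibroblasts (MEF cells), selected by name. The genes were the cadherins Cdh2 and Cdh11, the catenins Ctnnb1, Ctnna1, Ctnnd1 and Jup, the desmosomal plaque genes Dsp and Pkp2, and the adhesion molecules Pvr and Nlgn2. They are 10 of the 46765 names in the deposited tables. All 10 were in the table of Control and 2MUT, which has 43280 entries, and 9 were in the table of 2-HG(-) and 2-HG(+), which has 23930 entries and does not list Ctnnd1. Jup, Pvr and Nlgn2 were picked by the study from these same libraries as changed in both experiments, so their direction is not independent evidence.

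RNA-seq was performed on 12 libraries, 3 in each of 4 groups. The fibroblasts of every group descend from C57BL/6 mouse embryos (embryonic day 13.5) and are a spontaneously immortal culture. 2MUT cells carried a retroviral vector for a cancer-associated mutant of human IDH2, whose product converts α-ketoglutarate to 2-hydroxyglutarate (2-HG), and Control cells carried the mock vector. These are drug-selected stable cells that express the mutant from the vector, next to the mouse genes of the host. In a separate experiment, 2-HG(+) MEF cells received 300 μM of 2-HG in a membrane-permeant form for 24 h, and 2-HG(-) cells received DMSO by the labels and are described as non-treated in the paper. The comparisons ask whether expression of the mutant enzyme, or 2-HG added to the medium, is accompanied by a change of each gene.

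Cadherins are transmembrane proteins that bind a cadherin on the neighbouring cell, and their cytoplasmic tails bind catenins. β-catenin (Ctnnb1) or plakoglobin (Jup) links the tail to α-catenin (Ctnna1), which connects the complex to actin, while p120-catenin (Ctnnd1) holds the cadherin at the membrane. In desmosomes, plakoglobin and plakophilin (Pkp2) connect desmosomal cadherins to desmoplakin (Dsp) and intermediate filaments. β-catenin that is not bound at the membrane is degraded by the destruction complex, or enters the nucleus and activates target genes with TCF/LEF factors under Wnt signaling. Fibroblasts are mesenchymal cells, known for N-cadherin (Cdh2) and cadherin-11 (Cdh11) in place of the E-cadherin of epithelia.

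Reads counted on genes ranged from 6472439 to 7313602 per library in the IDH2 experiment and from 14959318 to 18363768 in the 2-HG experiment. Levels are given in RPM, reads on a gene per 1000000 reads on genes, and 3 reads correspond to 0.41 to 0.464 RPM in the former and 0.163 to 0.201 RPM in the latter. The summed level of the fibroblast markers was 16087 to 17961 RPM in Control, 14058 to 14504 RPM in 2MUT, 22654 to 24370 RPM in 2-HG(-) and 15795 to 16644 RPM in 2-HG(+). Of the 11 epithelial markers, 10 had a mean under 1 RPM in Control and 2MUT and all 11 in 2-HG(-) and 2-HG(+), including Epcam, Cdh1 and the keratins Krt5, Krt8, Krt14 and Krt18, and their sum was 0.26 to 3.66 RPM. The endothelial sum was 0.957 to 1.42 RPM in Control, 2.20 to 3.71 RPM in 2MUT, 0.48 to 1.47 RPM in 2-HG(-) and 0.727 to 0.979 RPM in 2-HG(+). The leukocyte sum was 7.98 to 13.5, 7.71 to 8.65, 12.1 to 14.6 and 8.93 to 11.1 RPM in the same order, the muscle sum 1.48 to 3.42, 3.09 to 5.71, 2.34 to 3.43 and 2.45 to 3.86 RPM, and the neuronal sum 18.3 to 23.1, 22.2 to 22.3, 14.7 to 16.3 and 10.6 to 14.2 RPM. Ptprc of leukocytes, Cdh5 of endothelium, Myod1 of muscle and Snap25, Syn1 and Rbfox3 of neurons were under 1 RPM in every group. At 1 RPM or more in every group were Cd68 of leukocytes, Des of muscle and Tubb3 and Map2 of neurons. Cldn7 of epithelia and Pecam1 of endothelium reached it in Control and 2MUT, Csf1r of leukocytes in all groups but Control, and Tnnt2 of muscle in 2MUT. Of the fibroblast markers, S100a4 was under 1 RPM in Control and 2MUT and is not listed in the 2-HG experiment. Lum was under 1 RPM in 2MUT, 2-HG(-) and 2-HG(+). The fibroblast sum was lower in 2MUT than in Control and lower in 2-HG(+) than in 2-HG(-). The endothelial sum was higher in 2MUT, and the epithelial sum, at 0.707 to 1.00 RPM against 0.26 to 0.595 RPM, the leukocyte sum and the neuronal sum were lower in 2-HG(+) than in 2-HG(-), each without overlap of the libraries. The part of these sums in the changes of the genes described was not tested. In these bulk samples, fewer cells that express a gene and less of its RNA per cell cannot be told apart.

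In 2MUT against Control, Cdh2, Cdh11, Pkp2, Pvr and Ctnnb1 were higher, Jup and Nlgn2 were lower, and Ctnna1 did not pass the test. The call of Ctnnb1 was lost in 5 of 16 alternative runs. In 2-HG(+) against 2-HG(-), only Pvr was higher, and Jup, Cdh11 and Nlgn2 were lower, whereas Ctnnb1, Ctnna1, Cdh2 and Pkp2 did not pass. Of the 10 genes, 8 reached the filter of a mean of 1 RPM over the 6 libraries in each comparison, and Ctnnd1 and Dsp were below it. With limma on log2(RPM + 1) and a Benjamini-Hochberg adjusted p-value under 0.05 over all genes, 5 of the 8 were higher and 2 lower in 2MUT, where 33.8% of the 11065 tested genes passed, 16.5% higher and 17.3% lower. With 2-HG, 1 of the 8 was higher and 3 were lower, where 32.8% of the 10384 tested genes passed, 16.1% higher and 16.7% lower. The libraries of the groups did not overlap for 7 of the 8 in 2MUT, where this held for 47.5% of all tested genes, and for 5 of the 8 with 2-HG, where it held for 46.3%. The median log2 fold change of the 8 genes was 0.62 in 2MUT and -0.24 with 2-HG, beside 0.01 and -0.02 over all tested genes. A log2 fold change from limma is that of RPM + 1, which understates the change of genes with few reads, and its error is the standard error of the fit over 3 libraries a group. The labels do not say that the 3 libraries came from separate cultures, so the p-values measure the spread between these samples, which may be technical.

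**Figure D1:**
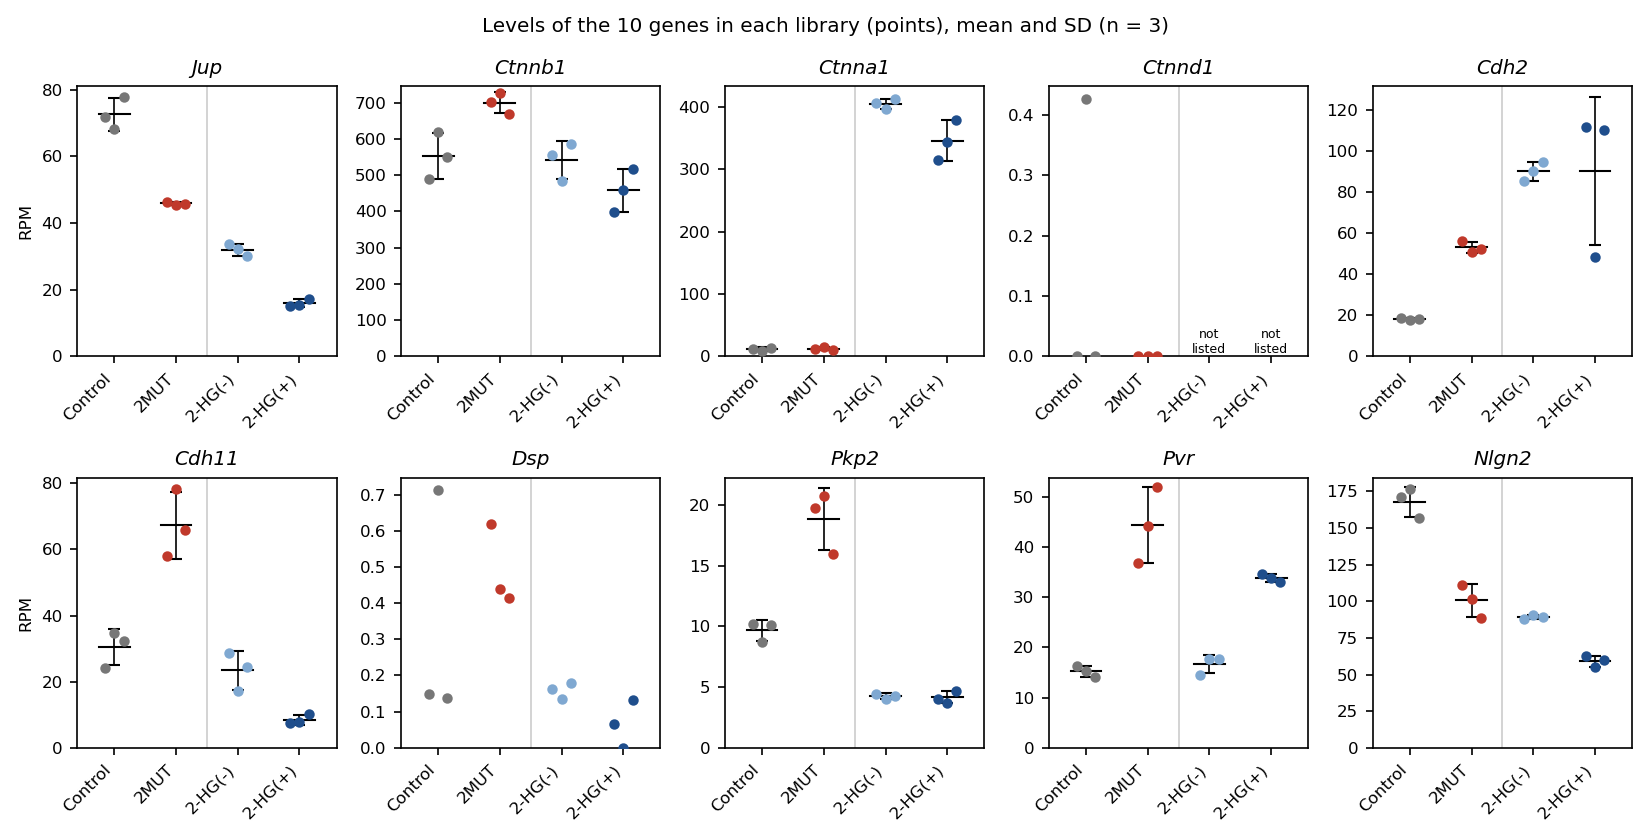
Levels of the 10 genes in RPM (vertical axes, linear and starting at 0, scaled for each gene) in Control, 2MUT, 2-HG(-) and 2-HG(+). Points are libraries, the bars are the mean and SD of 3 libraries and are left out for Ctnnd1 and Dsp, which lie below 1 RPM, and the vertical line separates the 2 experiments. Pvr is higher and Jup and Nlgn2 are lower in the treated or mutant group of both experiments, while Cdh11 is higher in 2MUT and lower in 2-HG(+).

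Cdh2, N-cadherin, is located at chr18:16588877-16809246 on the reverse strand of GRCm38. Its level was 18.5, 17.5 and 18.0 RPM in Control and 56.2, 50.9 and 52.2 RPM in 2MUT. Every 2MUT library was thus far above every Control library, and the rise had a log2 fold change of 1.51 ± 0.13 (adjusted p = 9.1e-06), larger in size than that of 97.5% of tested genes. With 2-HG no such separation was seen, as 2-HG(-) had 85.7, 90.4 and 94.9 RPM and 2-HG(+) had 112, 48.5 and 111 RPM. One 2-HG(+) library lay below and the other two above all 2-HG(-) libraries. The log2 fold change was -0.09 with a 95% interval from -0.70 to 0.51 (adjusted p = 0.81). Without 2-HG(+) replicate 2, the low library, it was 0.30 (adjusted p = 0.10), so the sign of this value rests on a single library and the test did not pass in either case.

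Cdh11, located at chr8:102632095-102785642 on the reverse strand, moved in opposite directions. It was at 24.3, 34.6 and 32.4 RPM in Control and at 58.1, 78.2 and 65.8 RPM in 2MUT, with no overlap between the groups. The rise had a log2 fold change of 1.13 ± 0.16 (adjusted p = 0.00037). In the other experiment, 2-HG(-) had 28.7, 17.1 and 24.3 RPM and 2-HG(+) had 7.40, 7.76 and 10.1 RPM. All 2-HG(+) libraries were below all 2-HG(-) libraries, and the gene fell by 1.35 ± 0.19 on the log2 scale (adjusted p = 0.00073). Cdh2 and Cdh11 are both classical cadherins of mesenchymal cells, and with 2-HG one passed the test and the other did not.

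Ctnnb1 encodes β-catenin, which binds the cadherin tail and is also the transcriptional effector of Wnt signaling. The gene lies at chr9:120929216-120960507 on the forward strand, where Ulk4 and the antisense transcript 4930593C16Rik overlap it on the opposite strand. Its level was 489, 618 and 551 RPM in Control and 703, 728 and 669 RPM in 2MUT. The groups did not overlap, and the log2 fold change was 0.35 ± 0.10 (adjusted p = 0.020). This call was lost without 2MUT replicate 1 (adjusted p = 0.064), without 2MUT replicate 2 (adjusted p = 0.078) and without Control replicate 1 (adjusted p = 0.051), with a log2 fold change of 0.34, 0.32 and 0.26. It was also lost with the variance estimated without a trend (adjusted p = 0.078) and with an unmoderated test (adjusted p = 0.093). With 2-HG, the libraries overlapped, at 556, 483 and 584 RPM in 2-HG(-) and 398, 459 and 518 RPM in 2-HG(+). The log2 fold change was -0.24, with a 95% interval from -0.52 to 0.03 (adjusted p = 0.16).

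Ctnna1 encodes αE-catenin, the actin-binding partner of β-catenin and plakoglobin, and lies at chr18:35118859-35254779 on the forward strand with Lrrtm2 on the opposite strand inside it. In the IDH2 experiment it was at 11.7, 8.55 and 13.9 RPM in Control and 11.7, 14.3 and 10.0 RPM in 2MUT. These ranges overlapped, and the log2 fold change was 0.08 with a 95% interval from -0.37 to 0.54 (adjusted p = 0.79). In the 2-HG experiment it was at 406, 398 and 414 RPM in 2-HG(-) and 315, 344 and 380 RPM in 2-HG(+). Although all treated libraries were the lower ones, the log2 fold change of -0.23 did not pass the test (95% interval from -0.45 to -0.01, adjusted p = 0.097). After quantile normalization the value was -0.30 and passed (adjusted p = 0.038).

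The level of Ctnna1 differed 35.6-fold between the reference groups of the experiments, from a mean of 11.4 RPM in Control to 406 RPM in 2-HG(-). Of 9617 names with at least 1 RPM in both groups, 64 had a ratio at least this large in either direction, and the median ratio was 0.867. Cdh2 was 5.01 times higher in 2-HG(-) than in Control. Among the other 6 genes above the filter the ratio ran from 0.439 for Pkp2 to 1.09 for Pvr. The tables list different entries, the cells were handled separately and only 2-HG(-) cells received DMSO by the labels, and the origin of these ratios was not tested. All changes are therefore computed within an experiment.

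Ctnnd1 encodes p120-catenin and lies at chr2:84600071-84650765 on the reverse strand, where the gene model Gm28635 overlaps it on the same strand. It was listed at 0, 0.427 and 0 RPM in Control, which is 3 reads in all, and at 0 RPM in the 3 libraries of 2MUT. No fold is given, since both groups are at or below 3 reads. p120-catenin is usually abundant in fibroblasts, and whether the amplified target detects the gene, or its reads are assigned to another entry, was not tested, so these values are not read as absence of expression. Its value with 2-HG was not analysed here.

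Jup encodes plakoglobin, also named γ-catenin, the one catenin shared by adherens junctions and desmosomes. It lies at chr11:100368958-100397763 on the reverse strand. Its level was 71.8, 68.1 and 77.9 RPM in Control and 46.4, 45.4 and 45.8 RPM in 2MUT. In the 2-HG experiment it was 33.6, 32.2 and 29.96 RPM in 2-HG(-) and 15.1, 15.5 and 17.3 RPM in 2-HG(+). Libraries of 2MUT and of 2-HG(+) were all below those of their reference group. In the 2MUT comparison the 95% interval of the log2 fold change ran from -0.89 to -0.41 (adjusted p = 0.0011), and with 2-HG from -1.22 to -0.70 (adjusted p = 0.00027). The fall in 2MUT was larger in size than the change of 79.3% of tested genes, and that with 2-HG larger than 93.3%. Within the catenins, Jup and Ctnnb1, which occupy the same place on the cadherin tail, had changes of opposite sign in 2MUT. The call of Ctnnb1 in 2MUT was lost in 5 of 16 alternatives.

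Promoter sequences were taken from RefSeq (GRCm38.p6), which held 5 of the 10 genes in the table used, Jup, Ctnnb1, Nlgn2, Dsp and Ctnnd1. Those of Jup and Nlgn2 are shown as the genes that were lower in both experiments, and that of Ctnnb1 as the catenin that was higher in 2MUT. Each sequence reads 5′ to 3′ on the strand of the gene and ends at the RefSeq start or, for Jup, 49 bases earlier, as those 49 bases are exon of another annotated transcript. The RefSeq start of Ctnnb1 lies inside the GENCODE interval given above, because GENCODE also lists transcripts of the gene that begin farther upstream. Capitals mark the GC box GGGCGG or its reverse complement CCGCCC, the motif of Sp factors. The windows are chr11:100397840-100398040 for Jup, chr11:69837785-69838034 for Nlgn2 and chr9:120933150-120933399 for Ctnnb1.
Jup: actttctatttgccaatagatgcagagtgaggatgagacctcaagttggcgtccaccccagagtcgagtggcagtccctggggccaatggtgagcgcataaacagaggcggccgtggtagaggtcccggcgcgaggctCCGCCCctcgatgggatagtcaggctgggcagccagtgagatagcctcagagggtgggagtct
Nlgn2: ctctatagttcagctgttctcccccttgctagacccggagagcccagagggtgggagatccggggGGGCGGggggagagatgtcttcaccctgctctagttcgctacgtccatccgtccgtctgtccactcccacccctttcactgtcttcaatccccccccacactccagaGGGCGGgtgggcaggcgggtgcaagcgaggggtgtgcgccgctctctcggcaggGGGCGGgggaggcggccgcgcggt
Ctnnb1: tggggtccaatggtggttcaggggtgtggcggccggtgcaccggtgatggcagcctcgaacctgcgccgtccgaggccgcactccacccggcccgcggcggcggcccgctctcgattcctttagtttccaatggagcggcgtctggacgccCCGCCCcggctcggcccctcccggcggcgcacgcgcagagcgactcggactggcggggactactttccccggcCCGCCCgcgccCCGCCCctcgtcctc

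The GC box was found 1 time in the 201 bases of Jup and 3 times each in the 250 bases of Nlgn2 and Ctnnb1. Over 32851 promoters, 24.8% held it within the same 201 bases and 32.7% within 250 bases, on either strand. GC content was 60.2% for Jup, 67.6% for Nlgn2 and 74.8% for Ctnnb1, with 10, 18 and 35 CpG dinucleotides. The E-box CAGGTG, which is bound by Snail and Zeb factors, the TCF/LEF cores CTTTGAT and CTTTGTT and the hypoxia response core ACGTG were also searched on both strands, and none of these letters occurred in the 3 windows. Of all promoters, 17.2%, 3.21%, 5.03% and 16.6% held these motifs within 250 bases, in that order, and 14.5%, 2.65%, 4.08% and 13.0% within 201 bases.

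Pkp2 encodes plakophilin-2, an armadillo protein of the desmosomal plaque, and lies at chr16:16213318-16272712 on the forward strand. It was at 10.2, 8.69 and 10.1 RPM in Control and at 19.8, 20.8 and 15.96 RPM in 2MUT. The 2MUT libraries were all above Control, with a log2 fold change of 0.89 ± 0.17 (adjusted p = 0.0021). In the 2-HG experiment it was at 4.47, 4.01 and 4.26 RPM in 2-HG(-) and 4.03, 3.73 and 4.71 RPM in 2-HG(+). These overlapped, and the log2 fold change was -0.03 with a 95% interval from -0.34 to 0.29 (adjusted p = 0.89).

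Dsp encodes desmoplakin, which anchors intermediate filaments to desmosomes, and lies at chr13:38151294-38198577 on the forward strand. It had 7, 10, 8 and 3 reads in all in Control, 2MUT, 2-HG(-) and 2-HG(+), and no library was above 0.712 RPM. With no filter, its log2 fold change was 0.19 in 2MUT (adjusted p = 0.55) and -0.12 with 2-HG (adjusted p = 0.19). Of 14 other desmosomal genes, which include the desmogleins and desmocollins, 2 reached the filter in each experiment, and neither passed the test in 2MUT or with 2-HG. The desmogleins Dsg1a, Dsg1b and Dsg1c are not listed in the 2-HG experiment. For the 2 desmosomal genes that reached the filter, the difference between the experiments, 2MUT minus 2-HG, passed. It was -0.61 for Perp (adjusted p = 0.012) and 0.79 for Pkp3 (adjusted p = 0.032), genes that are named here after their values were seen. The same contrast passed for 39.4% of all genes tested. Whether the amplified target detects Dsp was not tested.

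Pvr encodes the poliovirus receptor CD155, an immunoglobulin-like molecule of the nectin family that binds nectin-3 on neighbouring cells and receptors on lymphocytes. It lies at chr7:19903578-19921160 on the reverse strand, with the antisense transcript Gm16251 over its 5′ end. Its level was 16.3, 15.4 and 14.1 RPM in Control and 36.9, 44.2 and 52.0 RPM in 2MUT. In 2-HG(-) it was 14.6, 17.8 and 17.7 RPM and in 2-HG(+) 34.6, 33.9 and 33.1 RPM. The groups of each experiment were apart by more than the spread within either of them. The log2 fold change had a 95% interval from 1.13 to 1.81 in 2MUT (adjusted p = 5.3e-05) and from 0.72 to 1.25 with 2-HG (adjusted p = 0.00029). It was the one gene of the 10 that was higher in both comparisons. Its lymphocyte receptors Cd226, Tigit and Cd96 were all below the filter in both experiments.

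Nlgn2 encodes neuroligin-2, a postsynaptic adhesion molecule of inhibitory synapses that binds neurexins, and lies at chr11:69823122-69837784 on the reverse strand. It was at 171, 176 and 157 RPM in Control and at 111, 102 and 88.9 RPM in 2MUT. In the other experiment it was at 88.2, 90.5 and 89.0 RPM in 2-HG(-) and at 62.5, 55.1 and 59.6 RPM in 2-HG(+). No library of 2MUT or 2-HG(+) reached the level of its reference group. The 95% interval of the log2 fold change ran from -0.98 to -0.50 in 2MUT (adjusted p = 0.0005) and from -0.80 to -0.38 with 2-HG (adjusted p = 0.0014). Of 9 partners and relatives, which include the neurexins and gephyrin, 2 reached the filter in each experiment and neither passed the test. Of the others, Nlgn3 is not listed in the 2-HG experiment.

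To see which genes differed between expression of the mutant and addition of 2-HG, the difference of the log2 fold changes, 2MUT minus 2-HG, was tested with limma over the 12 libraries, and 39.4% of the 9594 genes tested in both passed. Cdh11 had the largest difference of the 8 genes, 2.48 ± 0.28 (adjusted p = 1.1e-05), and for it both single changes had passed in opposite directions. Cdh2 differed by 1.60 ± 0.33 (adjusted p = 0.0016), Pkp2 by 0.92 ± 0.21 (adjusted p = 0.0034) and Ctnnb1 by 0.59 ± 0.17 (adjusted p = 0.012). These 4 were higher in 2MUT relative to 2-HG, a direction called for 19.9% of all genes tested, and none of the 8 passed in the other direction, called for 19.5%. The difference did not pass, with a 95% interval on the log2 scale for Jup from -0.01 to 0.62 (adjusted p = 0.11), for Nlgn2 from -0.46 to 0.16 (adjusted p = 0.43), and for Ctnna1 from -0.16 to 0.79 (adjusted p = 0.28). For Pvr it was 0.49, with an interval from 0.07 to 0.90 (adjusted p = 0.060). The difference of Pvr passed without 2-HG(-) replicate 1 (0.57, adjusted p = 0.041) and without 2MUT replicate 1 (0.61, adjusted p = 0.022), and that of Jup passed under an unmoderated test (adjusted p = 0.032). The cells of the 2 experiments also differ in selection, vector, duration and table, and these cannot be told apart from the mode of exposure.

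**Figure D2:**
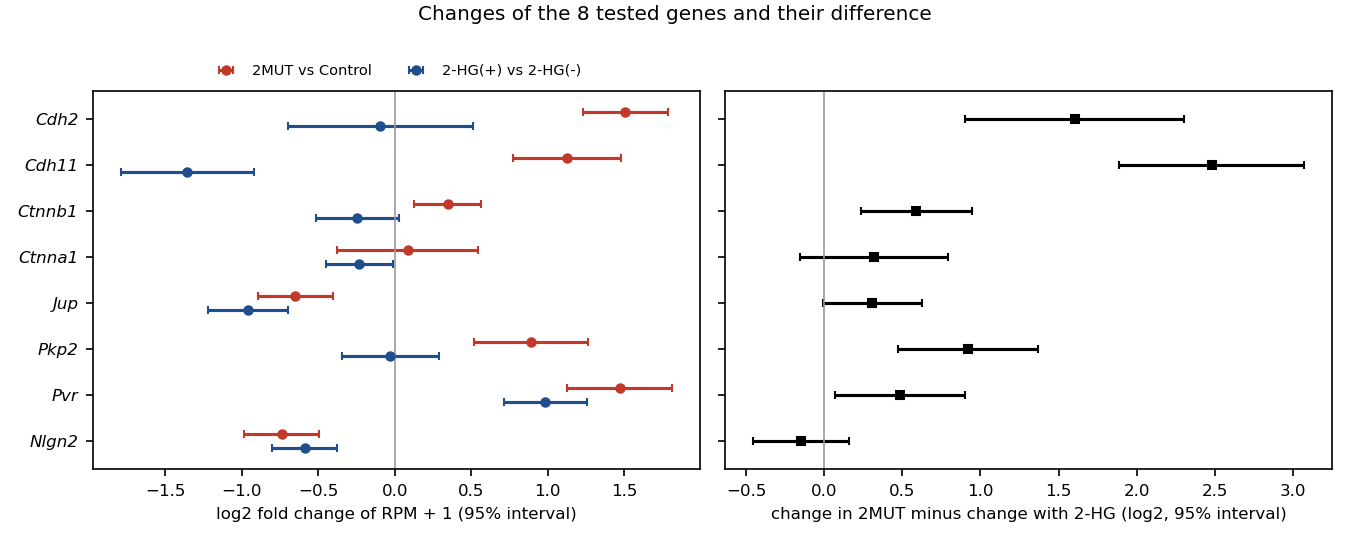
Log2 fold changes of RPM + 1 of the 8 tested genes in 2MUT (red) and with 2-HG (blue), and the difference between them (black, right), as points with 95% intervals from limma. The intervals of the difference lie above 0 for Cdh2, Cdh11, Ctnnb1, Pkp2 and Pvr, and that of Pvr did not pass after adjustment over all genes.

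Genes around these 10 were described with 10 lists of 129 genes in all, of which 124 are listed in the 2-HG experiment. In 2MUT, 64 were tested, of which 11 were higher and 14 lower, beside 16.5% and 17.3% of all tested genes. With 2-HG, 59 were tested, of which 4 were higher and 16 lower, beside 16.1% and 16.7%. These background shares hold for each list below. The medians of their log2 fold changes were -0.07 and -0.10. Without 2-HG(-) replicate 1 or replicate 3, the genes lower with 2-HG were 9 and 7, and without 2-HG(-) replicate 2 those higher were 7. Of the calls that the rule for named genes picks, 15 of 19 in 2MUT and 9 of 16 with 2-HG were kept in each fit that left out 1 library. The genes with a kept call are described below, a choice made after the values were seen. Where a call lost in such a fit is given, its loss stands beside it. Losses under other settings are given beside the call or in the closing sections. Of the picked calls, those not kept, which the counts of the lists still hold, were those of Cdh18, Ajuba, Csnk1a1 and Tcf3 in 2MUT and of Fat1, Arvcf, Ctnnal1, Amer1, Tcf4, Ncam1 and Vcam1 with 2-HG. Their highest adjusted p with 1 library left out ran from 0.118 for Ajuba to 0.166 for Tcf3 in 2MUT, and from 0.060 for Vcam1 to 0.172 for Ncam1 with 2-HG.

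Of the 21 other cadherins, 5 were tested in each experiment, with 2 higher and 2 lower in 2MUT and 1 higher and 2 lower with 2-HG. Cdh13, T-cadherin, a cadherin without a cytoplasmic tail, was at 171, 164 and 155 RPM in Control and 274, 375 and 284 RPM in 2MUT, and at 66.3, 66.6 and 77.2 RPM in 2-HG(-) and 25.9, 31.0 and 31.0 RPM in 2-HG(+). Like Cdh11, it rose in 2MUT (log2 fold change 0.91, adjusted p = 0.00025) and was lower with 2-HG (-1.23, adjusted p = 7.1e-05). Cdh3, P-cadherin, had the reverse pattern. It fell by 1.30 on the log2 scale in 2MUT (adjusted p = 0.0027), from a mean of 3.56 RPM, and rose by 0.95 with 2-HG (adjusted p = 0.00043). The value of Cdh3 in 2MUT ran from -2.01 to -1.10 over the alternatives, and its call was kept. The difference between the experiments passed for both, at 2.14 for Cdh13 (adjusted p = 8.6e-07) and -2.25 for Cdh3 (adjusted p = 1.2e-05). The protocadherin and Fat list had no higher gene in either experiment, with 2 of 7 tested lower in 2MUT and 4 of 6 lower with 2-HG. Pcdh18 fell by 1.48 in 2MUT (adjusted p = 6.6e-06) and by 1.33 with 2-HG (adjusted p = 0.00016). Pcdh9 fell by 1.05 in 2MUT (adjusted p = 0.0014), and Fat4 fell by 0.90 with 2-HG (adjusted p = 0.0051). The call of Fat4 was lost under an unmoderated test (adjusted p = 0.077).

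Among 14 other catenins and linkers between junctions and actin, 2 of 12 tested were higher and 3 lower in 2MUT, and 3 of 10 were lower with 2-HG. Vcl, vinculin, which binds α-catenin and actin, was at 381, 337 and 349 RPM in Control and at 145, 162 and 163 RPM in 2MUT. It fell by 1.18 in 2MUT (adjusted p = 7.6e-06), while the value with 2-HG was -0.21 (adjusted p = 0.15), and the difference passed (-0.97, adjusted p = 9.2e-05). Pkp4, a p120-related armadillo protein, rose by 0.59 in 2MUT (adjusted p = 0.0071), and Actn4, an actin crosslinker, fell by 0.37 (adjusted p = 0.014). Under an unmoderated test both calls were lost (adjusted p = 0.066 for Pkp4 and 0.062 for Actn4). That of Actn4 was also lost with the variance estimated without a trend (adjusted p = 0.055). Lima1, which binds actin at junctions, fell by 0.52 with 2-HG (adjusted p = 0.0039).

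The nectin and immunoglobulin list had 2 of 12 tested genes higher and 1 lower in 2MUT, and 1 of 12 higher and 3 lower with 2-HG. Vcam1, a ligand of leukocyte integrins, was at 106, 119 and 133 RPM in Control and 40.6, 48.9 and 49.0 RPM in 2MUT, and fell by 1.35 (adjusted p = 2.0e-05). With 2-HG it fell by 0.63 (adjusted p = 0.013), a call lost without 2-HG(-) replicate 3 (-0.56, adjusted p = 0.060). Jam2, a junctional adhesion molecule, rose by 0.72 in 2MUT (adjusted p = 0.0066), a call lost under an unmoderated test (adjusted p = 0.053). Alcam fell by 0.94 (adjusted p = 0.0012) and Mcam rose by 0.85 (adjusted p = 0.0038) with 2-HG.

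Because Ctnnb1 also acts in the nucleus, known targets of β-catenin and TCF were listed, of which 4 of 9 tested were higher and 2 lower in 2MUT, and 2 of 7 higher and 2 lower with 2-HG. Axin2, a feedback inhibitor of the pathway, was at 6.66, 5.41 and 5.61 RPM in Control and at 35.1, 33.8 and 26.8 RPM in 2MUT, a rise of 2.25 (adjusted p = 4.9e-06). With 2-HG it was at 14.8, 12.8 and 11.5 RPM in 2-HG(-) and 9.12, 10.8 and 11.7 RPM in 2-HG(+), a log2 fold change of -0.28 (adjusted p = 0.17). The transcription factor gene Lef1 rose by 1.10 in 2MUT (adjusted p = 0.00092) and was lower with 2-HG (-0.73, adjusted p = 0.017), the second call being lost without 2-HG(-) replicate 1 (-0.71, adjusted p = 0.054) or replicate 3 (-0.65, adjusted p = 0.074). Notum, a secreted Wnt inhibitor, rose by 0.75 in 2MUT (adjusted p = 0.00096) and fell by 0.96 with 2-HG (adjusted p = 0.00018). Other targets went the opposite way in 2MUT, where Ccnd1, cyclin D1, fell by 1.55 (adjusted p = 3.8e-05) and Tcf7 fell by 1.35 (adjusted p = 0.00074). With 2-HG, Tcf7 rose by 0.74 (adjusted p = 0.0095), from a mean near 1 RPM, and Myc rose by 0.80 (adjusted p = 0.001). The value of Tcf7 with 2-HG ran from 0.59 to 1.24 over the alternatives, and its call was kept. The targets thus did not move one way in either experiment. Of the destruction complex, 8 genes were tested, with 1 higher and 1 lower in 2MUT and 1 lower with 2-HG, and Amer1, which binds Apc, fell by 0.52 in 2MUT (adjusted p = 0.0054). The gene lower with 2-HG was also Amer1 (-0.47, adjusted p = 0.025), a call lost in 7 of 16 alternatives, among them the fits without 2-HG(-) replicate 1 (adjusted p = 0.083) or 3 (adjusted p = 0.084) and without 2-HG(+) replicate 1 (adjusted p = 0.057) or 2 (adjusted p = 0.069). The gene higher in 2MUT was Csnk1a1, a kinase of the complex (0.26, adjusted p = 0.035), a call lost in 8 of 16 alternatives, among them the fits without any one of the 2MUT libraries or without Control replicate 1 or 2, with an adjusted p of up to 0.13.

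Of 9 genes of transcription factors known to repress the E-cadherin gene Cdh1, 7 were tested in each experiment, and Twist2 is not listed in the 2-HG experiment. In 2MUT 3 were lower, with 2-HG 1 was lower, and none was higher in either. Cdh1 itself was under 1 RPM in every group. The part of these factors in the changes of Cdh2 and Cdh11 was not tested. Twist1 was at 201, 161 and 170 RPM in Control and 136, 119 and 111 RPM in 2MUT, and fell by 0.53 (adjusted p = 0.0051). This call was lost under an unmoderated test (adjusted p = 0.060). Tcf4 was at 380, 424 and 326 RPM in Control and 252, 239 and 235 RPM in 2MUT, and fell by 0.63 (adjusted p = 0.001). Both 2MUT ranges were below those of Control. The third gene was Tcf3 (-0.36, adjusted p = 0.044), whose call was lost in 8 of 16 alternatives, among them the fits without any one of the 2MUT libraries or without Control replicate 2 or 3, with an adjusted p of up to 0.166. The gene lower with 2-HG was Tcf4, at 114, 124 and 113 RPM in 2-HG(-) and 81.2, 37.9 and 92.3 RPM in 2-HG(+) (-0.82, adjusted p = 0.043). Without 2-HG(+) replicate 2, the low library and also the low one for Cdh2, the value was -0.43 (adjusted p = 0.033). The call of Tcf4 with 2-HG was lost in 9 of 16 alternatives, among them edgeR (adjusted p = 0.067) and the fits without 2-HG(-) replicate 1 (adjusted p = 0.089), 2 (adjusted p = 0.099) or 3 (adjusted p = 0.099).

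**Figure D3:**
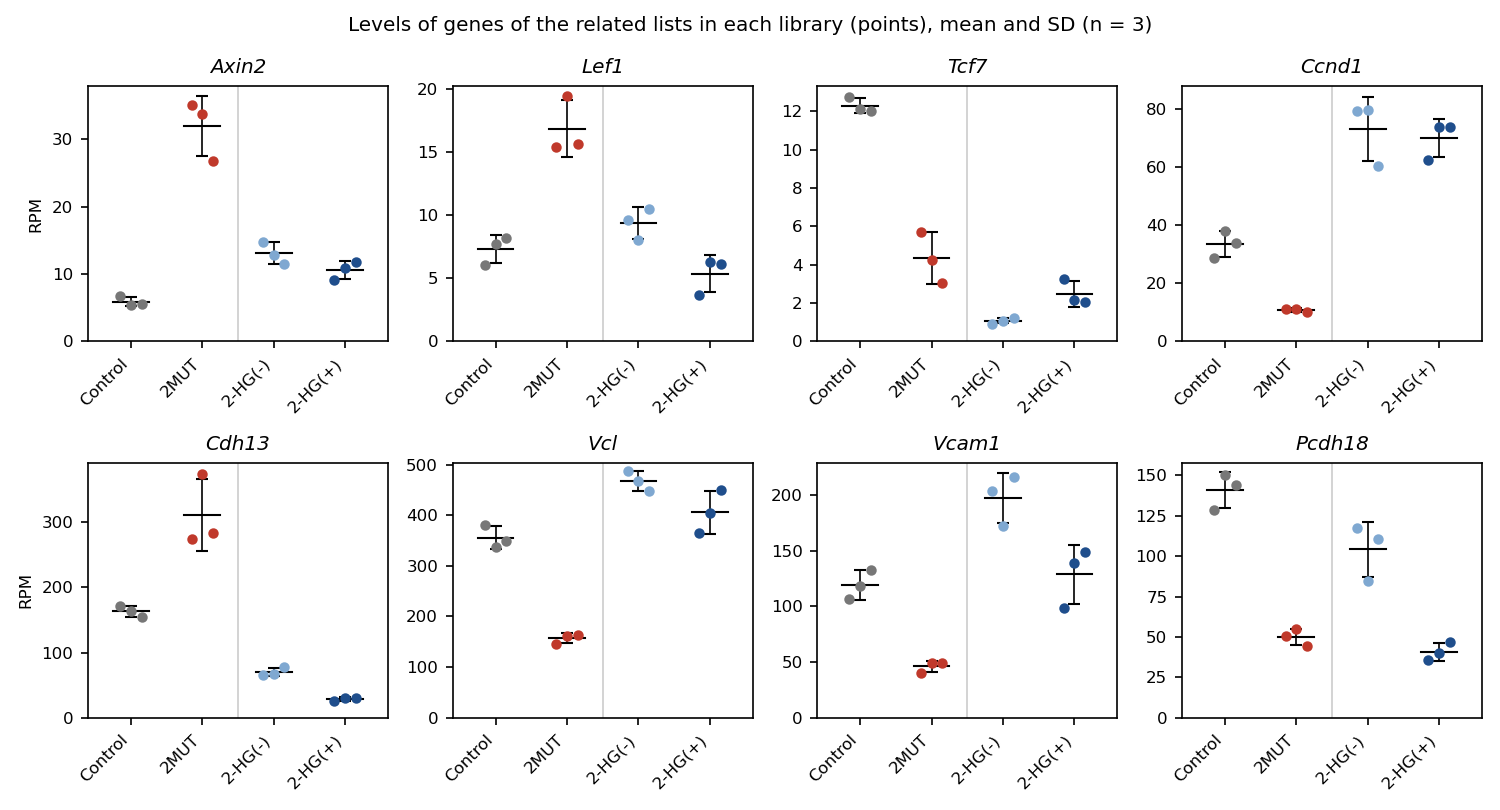
Levels in RPM (vertical axes, linear, starting at 0) of 8 genes of the related lists, with points for libraries and bars for the mean and SD of 3 libraries, and a vertical line between the experiments. Axin2, Lef1 and Cdh13 are higher and Tcf7, Ccnd1, Vcl, Vcam1 and Pcdh18 lower in 2MUT than in Control.

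**Figure D4:**
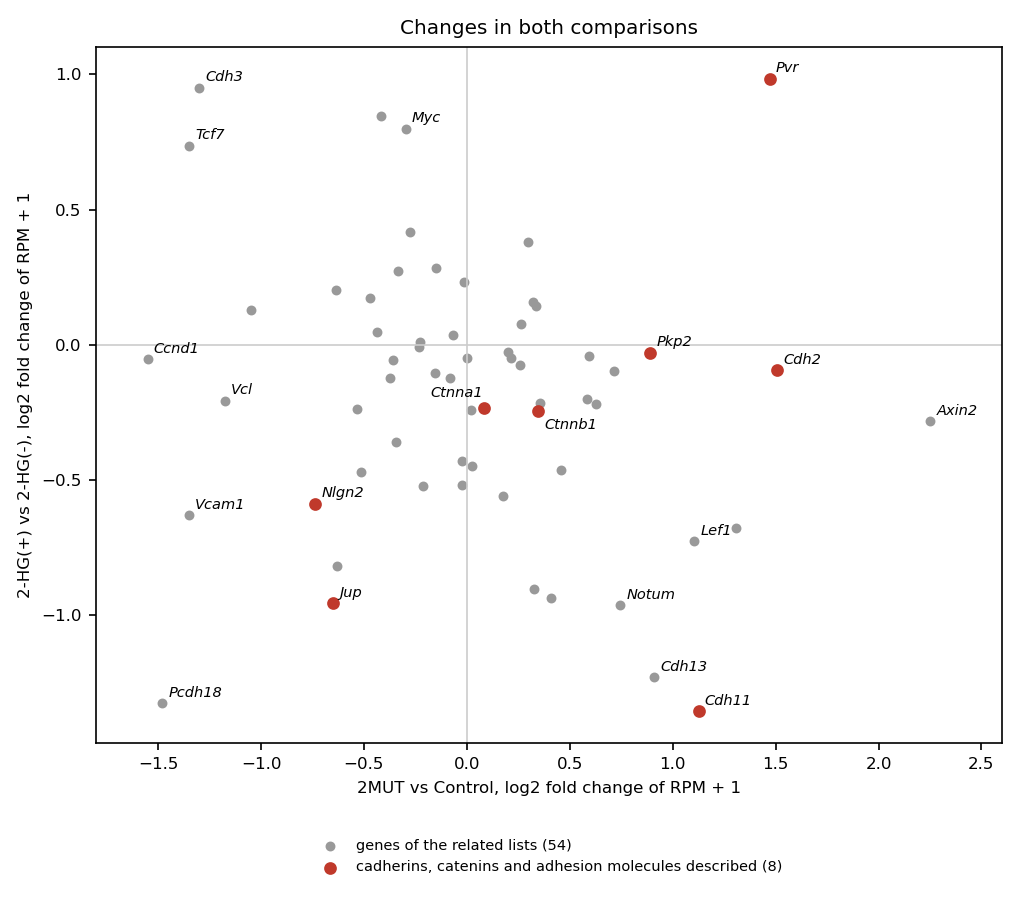
Log2 fold changes of RPM + 1 in 2MUT (horizontal axis) and with 2-HG (vertical axis) for the 8 genes described (red) and 54 genes of the related lists tested in both (grey), with both axes linear. Pvr lies at the upper right, Jup, Nlgn2 and Pcdh18 at the lower left, and Cdh11, Cdh13 and Notum at the lower right.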

How the data were processed

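Ion AmpliSeq libraries, which amplify a short stretch per transcript, were analysed from 12 samples, and 0 columns were left without a sample. The authors aligned the reads with TMAP to the AmpliSeq mouse reference, used the AmpliSeqRNA plug-in to count them, and deposited the values of each experiment as RPM per gene. All values were whole multiples of 1 read (100% within 0.0006 RPM), so whole reads were recovered. The positions of the targets were not used here, and a value reflects the target, so levels are not compared between genes.

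The log2 of RPM + 1 was tested by limma 3.58.1 (R 4.3.3), with a trend of variance on mean level, for genes averaging 1 RPM or more, and with Benjamini-Hochberg adjustment over all genes at a threshold of 0.05. On the recovered reads, edgeR 4.0.16 called 1818 genes higher and 1947 lower in 2MUT, and 1794 and 1752 with 2-HG. DESeq2 1.42.0 called 1838 and 1910, and 1901 and 1765. limma called 1826 and 1915, and 1668 and 1737. The 10 genes and the lists were chosen with earlier results of these data known. List genes are named if they passed with at least 10 RPM in the higher group, at most 4 per list and comparison, and for a gene so named a call in the other comparison may be given, also below 10 RPM or beyond the 4. The tests were also run on simulated reads with log2 changes of 1 or 2 and the same dispersion for every gene. For changes of 1, limma recovered 107 of 112 genes in the layout of 2MUT and Control and 96 of 98 in that of 2-HG. This setting holds no smaller changes and no outlying library, so it does not bear on calls such as that of Ctnnb1. Other settings were an added 0.1 RPM, quantile normalization, median-of-ratios scaling, a filter at 10 RPM or none, variances without a trend or unmoderated, a block for replicate number, and fits without 1 library each. Gene positions are those of GENCODE M21 on GRCm38. Tables and plots were made with pandas 2.3.3 and matplotlib 3.10.9.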

Additional observations from a re-analysis of the deposited data

Results flagged for a closer look

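Of the 8 tested genes, 4 had a change in 2MUT that differed from the change with 2-HG by the limma contrast of both (2MUT minus 2-HG, log2, over 12 libraries). The difference was 2.48 for Cdh11, 1.60 for Cdh2, 0.92 for Pkp2 and 0.59 for Ctnnb1, and 39.4% of all genes tested passed the same contrast. For Cdh11, all 3 libraries of 2MUT were above Control and all 3 of 2-HG(+) below 2-HG(-). For Cdh2, Pkp2 and Ctnnb1, the 2MUT libraries were above Control, whereas those of 2-HG(+) overlapped 2-HG(-).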

How the results depend on the processing

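Of the 8 tested genes, the calls of Cdh2, Cdh11, Pkp2, Pvr, Jup and Nlgn2 in 2MUT and of Pvr, Jup, Cdh11 and Nlgn2 with 2-HG were kept under each alternative run. That of Ctnnb1 in 2MUT was lost in 5 of 16 alternatives. Leaving out each library gave 4 to 5 higher and 2 lower genes in 2MUT, 1 and 3 with 2-HG, and 4 to 5 and 0 for the difference. Values that did not pass and changed sign were Cdh2 with 2-HG, at 0.0185 by edgeR, 0.0265 by DESeq2 and -0.30 to 0.30 with 1 library left out (0.30 without 2-HG(+) replicate 2), Ctnna1 in 2MUT, at -0.0914 to 0.23 with 1 library left out (-0.0390 without 2MUT replicate 2 and -0.0914 without Control replicate 2), and Pkp2 with 2-HG, at 0.10 after quantile normalization and -0.10 to 0.0314 with 1 library left out (0.00113 without 2-HG(-) replicate 1 and 0.0314 without 2-HG(+) replicate 2). The cause was not tested. Pkp2 with 2-HG has no value under the filter of 10 RPM.

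For the related lists, the filter of 10 RPM, which tests fewer genes, left 2 higher and 10 lower with 2-HG. The unmoderated test left 8 lower with 2-HG, and 6 higher and 9 lower in 2MUT, and over all genes it called 1021 higher and 1223 lower in 2MUT and 1098 and 1139 with 2-HG. Leaving out libraries gave 8 to 14 higher and 13 to 16 lower in 2MUT, and 4 to 7 and 7 to 16 with 2-HG. Under the unmoderated test the calls of Actn4, Jam2, Pkp4 and Twist1 in 2MUT and Fat4, Lef1 and Vcam1 with 2-HG were lost, with adjusted p from 0.0527 for Jam2 to 0.109 for Vcam1, and that of Actn4 also without a trend (0.055).

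The replicate numbers were not treated as pairs, and with 3 libraries a group the correlations cannot settle whether they pair the samples. The correlation of same-numbered deviations was 0.0708, 0.0293 and 0.0319 in the IDH2 experiment and -0.457, -0.158 and 0.0572 in the 2-HG experiment. Not every sample correlated best with its own number. With the replicate number as a block, the genes described counted 5 higher and 2 lower in 2MUT, 1 and 3 with 2-HG, and 4 and 0 for the difference, and all genes 1911 and 1987 in 2MUT, 1217 and 1286 with 2-HG, and 1694 and 1651 for the difference. Ctnnd1 and Dsp had at most 10 reads in a group, which limits the precision of their values. Dsp had 8 and 3 reads in the groups of the deeper 2-HG libraries and 7 and 10 in those of the IDH2 experiment.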
